A study of Mus musculus with 12 samples.

Results

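The genes described here are p53, encoded by Trp53, and 8 of its transcriptional targets: Mdm2, Cdkn1a, Ccng1, Trp53inp1, Bbc3, Bax, Sesn2 and Perp. Their probes were taken by gene symbol from the platform annotation, which gave 17 of the 25697 probes on the array, for 7 of the 9 genes. All 17 probes were among the 14599 that passed the detection filter and were tested. No probe is named for Trp53 or Bax in the annotation used, and both are not analysed here. Each probe is numbered within its gene by mean signal, so that probe 1 is the brightest.

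RNA came from wild type cells of the mouse embryonic stem (ES) cell line CCE, of strain 129/Sv, that had been turned toward endothelium and sorted for CD31, the endothelial adhesion molecule encoded by Pecam1. Vascular progenitors positive for Flk1 had been sorted from embryoid bodies after 4 days and plated on collagen IV for a second period of 4 days. The 4 groups of this second culture were hypoxia (1.5 to 2% oxygen) with the inhibitor, hypoxia without it, normoxia (21% oxygen) with the inhibitor and normoxia without it. The inhibitor was L-685.458 at 4 µmol/l, which blocks gamma-secretase, the protease that activates Notch receptors. Each group had 3 arrays, 1 per sample, numbered as biological replicates 1 to 3, and all rest on 1 cell line and on pooled sorted cells. In such RNA, fewer cells expressing a gene and less RNA per cell cannot be told apart.

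p53 is a transcription factor that stress signals stabilise and that halts the cell cycle, repairs DNA or starts cell death through the genes it binds. One of its targets, Mdm2, encodes the ubiquitin ligase that marks p53 for destruction, so the pathway holds its own negative feedback. In ES cells and their early derivatives p53 is abundant, and its targets serve as a readout of its activity beside its protein level.

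Each array detected 13085 to 13901 probes at a detection p-value under 0.05, and the lowest detected signal lay at 5.08 to 5.24 on the log2 scale. The arrays of replicate 3 stood apart from the others in every group: on the first principal component, which held 27.4% of the variance, they lay at 16.7 to 28.7, and the other 8 arrays at -22.6 to 3.77. In the averaged comparison, calls and signs that differ on the arrays of replicates 1 and 2 alone are given beside the result. As a check of the oxygen labels, Egln3, which encodes the prolyl hydroxylase PHD3 and is induced through the hypoxia-inducible factor (HIF), lay at 11.66 to 11.88 on the hypoxia arrays and at 9.54 to 9.94 on the normoxia arrays. The 8 endothelial markers were all detected, with a summed linear signal of 35085 to 55172 on the hypoxia arrays and 37321 to 53590 on the normoxia arrays. Blood markers were compared between hypoxia and normoxia averaged over the inhibitor, where 2.46% of all probes were called lower and 2.84% higher. Of 7 tested, with a median log2 change of -0.11, Laptm5 was higher in hypoxia (0.74, adjusted p = 0.000981 by limma). The embryonic and adult globin genes Hba-x and Hba-a1 were lower (-0.96 and -1.22, with adjusted p of 0.0116 and 0.0223 by limma). The other tested markers did not pass. Ptprc and Itgam were detected on 0 of 12 arrays.

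Promoter windows of 3 genes in RefSeq (mouse assembly GRCm38.p6, 250 bases before to 50 after each annotated start) are shown because each of these genes had a lower signal in hypoxia below. Within groups, after group means were removed, the brightest probes of Mdm2 and Cdkn1a correlated at r = -0.46 over the 12 arrays, those of Mdm2 and Ccng1 at -0.31 and those of Cdkn1a and Ccng1 at 0.13. With the group means kept, these r were 0.69, 0.79 and 0.79. Among pairs with the other measured members, r within groups ran from -0.60 for Cdkn1a with Sesn2 to 0.88 for Trp53inp1 with Perp. Perp was detected on 4 of the 12 arrays. Sesn2 read 8.55 on hypoxia with inhibitor 3 and no more than 8.14 elsewhere, so 1 array can weigh heavily in such r. Of the 2 windows of Cdkn1a, the one shown, at chr17:29090729-29091028 on the plus strand, holds a p53 full site. This is a pair of adjacent p53 consensus decamers with at most 2 mismatches. The other Cdkn1a window, at chr17:29093519-29093818, holds no full site and no decamer without mismatch. The window of Ccng1, at chr11:40755237-40755536 on the minus strand, holds another full site. That of Mdm2, at chr10:117710709-117711008 on the minus strand, holds a single decamer that matches without mismatch. Capitals mark the full site in the first 2 sequences and the decamer in the third.
Cdkn1a: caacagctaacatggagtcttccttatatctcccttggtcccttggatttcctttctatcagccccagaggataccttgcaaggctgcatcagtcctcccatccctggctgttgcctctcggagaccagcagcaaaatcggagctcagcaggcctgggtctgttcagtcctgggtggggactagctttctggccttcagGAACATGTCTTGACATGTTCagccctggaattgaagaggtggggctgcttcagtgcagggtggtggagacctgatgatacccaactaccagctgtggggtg
Ccng1: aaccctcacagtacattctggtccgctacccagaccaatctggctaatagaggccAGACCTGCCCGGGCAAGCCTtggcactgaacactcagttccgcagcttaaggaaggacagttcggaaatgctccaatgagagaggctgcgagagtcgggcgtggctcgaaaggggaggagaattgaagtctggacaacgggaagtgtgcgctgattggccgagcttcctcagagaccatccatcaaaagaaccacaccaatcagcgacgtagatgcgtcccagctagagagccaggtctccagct
Mdm2: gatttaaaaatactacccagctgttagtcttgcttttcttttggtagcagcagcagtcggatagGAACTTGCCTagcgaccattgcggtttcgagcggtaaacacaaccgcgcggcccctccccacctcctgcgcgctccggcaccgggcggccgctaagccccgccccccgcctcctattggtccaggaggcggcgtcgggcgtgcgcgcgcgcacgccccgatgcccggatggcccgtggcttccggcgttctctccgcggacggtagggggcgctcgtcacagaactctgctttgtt
The Cdkn1a site, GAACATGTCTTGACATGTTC at chr17:29090928-29090947, has 1 mismatch to the consensus. It begins 51 bases before the annotated start of the window shown. The start of the other Cdkn1a window lies farther downstream of this site. The Ccng1 site, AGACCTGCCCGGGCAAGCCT at chr11:40755462-40755481, begins 195 bases before the start and has 1 mismatch too. Of the 9 genes, 7 matched the table, with 10 windows, and both strands were searched. The full site was found in 2 of the 10 windows, against 0.798% of all 32851 windows, and the decamer without mismatch, which can also be part of a full site, in 5 of the 10, against 8.36% of all. The core sequence of the HIF binding site, ACGTG or GCGTG, was found in 8 of the 10 windows and in 43.8% of all. The well-known p53-responsive promoter of Mdm2 lies in its first intron, outside the window shown. Windows of Trp53inp1 and Perp are not shown.

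Averaged over the inhibitor, so that 6 hypoxia arrays stood against 6 normoxia arrays, Mdm2, Cdkn1a, Ccng1 and Trp53inp1 fell to between 64.2% and 82.4% of their normoxia signal. By limma with Benjamini-Hochberg adjustment over all tested probes, 9 of the 17 probes passed an adjusted p of 0.05 in this comparison, all of them lower in hypoxia and all from these 4 genes. Of all probes tested, 5.3% passed, 2.46% as lower and 2.84% as higher. Bbc3, Sesn2 and Perp did not pass with any probe. All 17 changes were below 0, as were 52.1% of those of all probes, and their median was -0.38, beside -0.01 over all probes. Several of the 17 probes share a gene. With 1 probe a gene, the median of the 7 genes was -0.28. In 9 of the 17 probes all 6 hypoxia arrays lay below all 6 normoxia arrays, which held for 2.54% of all probes tested.

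**Figure D1:**
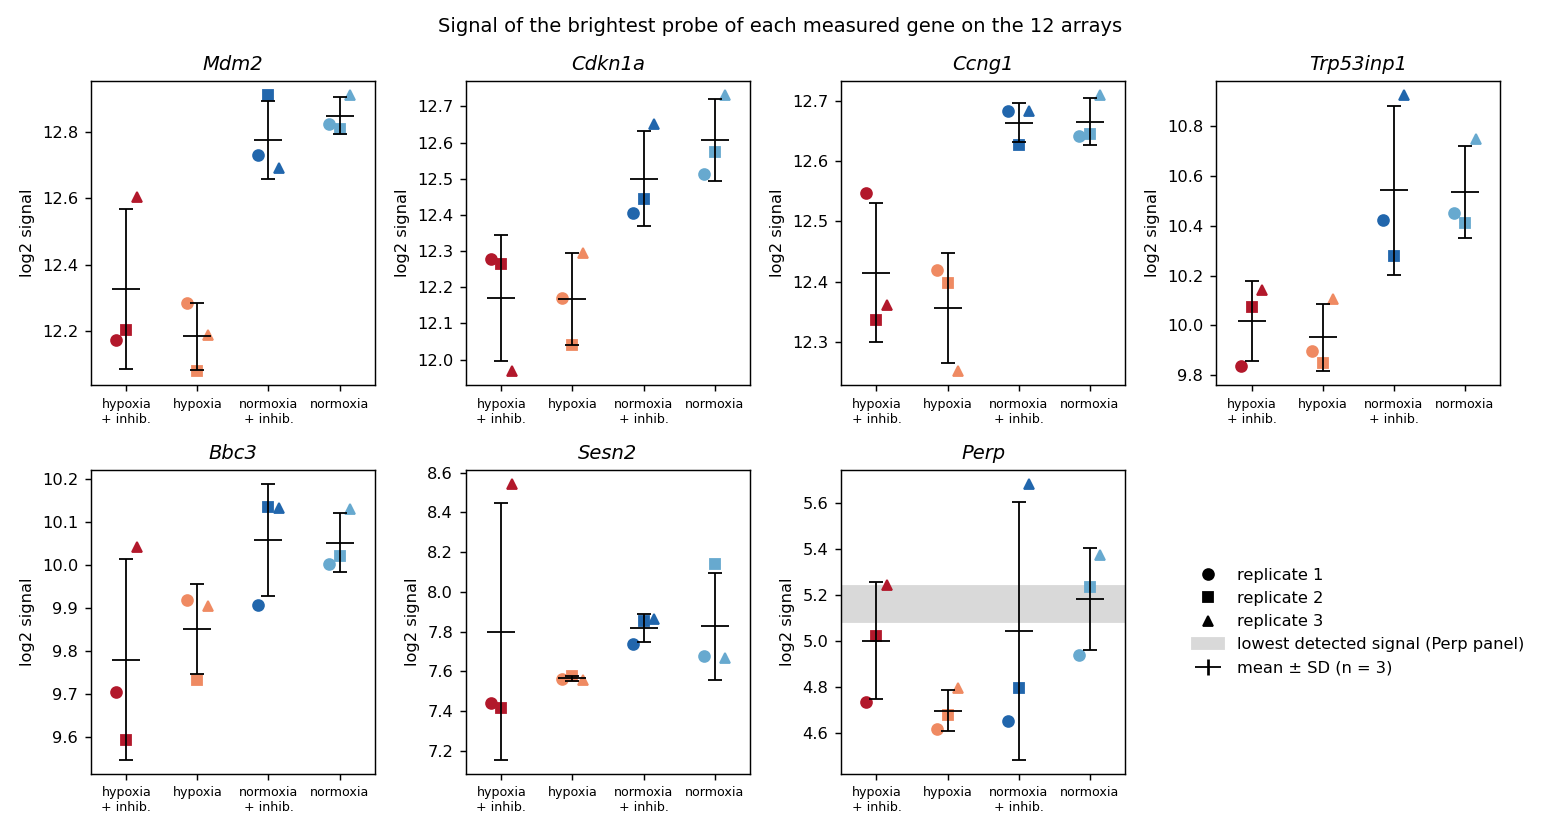
Log2 signal (vertical axis) of the brightest probe of Mdm2, Cdkn1a, Ccng1, Trp53inp1, Bbc3, Sesn2 and Perp on each of the 12 arrays, by group from left to right as hypoxia with inhibitor, hypoxia, normoxia with inhibitor and normoxia; marker shapes are replicates and bars are the mean ± SD of 3 arrays. In Mdm2, Cdkn1a, Ccng1 and Trp53inp1 every hypoxia array lies below every normoxia array, and the Perp points lie around the grey band of the lowest detected signal.

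Mdm2 (chromosome 10, 117688875 to 117710758, GRCm38.p6) had 3 probes. Its brightest probe read 12.17, 12.20 and 12.60 in hypoxia with the inhibitor and 12.28, 12.08 and 12.19 in hypoxia alone, against 12.73, 12.91 and 12.69 in normoxia with the inhibitor and 12.82, 12.81 and 12.91 in normoxia alone. All 6 hypoxia arrays were below all 6 normoxia arrays, with hypoxia with inhibitor 3 the nearest to them. The averaged log2 change was -0.56 (SE 0.0936, limma adjusted p = 0.00621), or 68.0% of the normoxia signal. Probe 2 gave nearly the same, at 11.65 to 12.12 on the hypoxia arrays and 12.32 to 12.56 on the normoxia arrays, with a change of -0.55 (limma adjusted p = 0.00549). Probe 3 is dim. It read 4.89 to 5.80 in hypoxia and 5.34 to 6.06 in normoxia, was detected on 3 of the 6 hypoxia arrays and on all 6 normoxia arrays, and its change of -0.44 did not pass (limma adjusted p = 0.178). Over the 12 arrays the signals of probes 1 and 2 correlated at r = 0.93, and those of probes 1 and 3 at r = 0.64, a description of arrays that share the group differences.

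Cdkn1a (chromosome 17, 29090979 to 29100722) encodes p21, the cyclin-dependent kinase inhibitor through which p53 stops the cell cycle. Its brightest probe read 12.28, 12.26 and 11.97 in hypoxia with the inhibitor and 12.17, 12.04 and 12.29 in hypoxia, against 12.41, 12.45 and 12.65 in normoxia with the inhibitor and 12.51, 12.57 and 12.73 in normoxia. The groups of the 2 oxygen levels did not overlap, but the gap between the highest hypoxia and the lowest normoxia array was narrow. The averaged change was -0.38 for probe 1 (SE 0.0910, limma adjusted p = 0.0323). Probe 3, the dimmest of the 3, had the largest change: 9.61, 9.65 and 9.45 in hypoxia with the inhibitor and 9.66, 9.65 and 9.82 in hypoxia, against 10.15, 9.99 and 10.35 in normoxia with the inhibitor and 10.11, 10.26 and 10.25 in normoxia. This was a change of -0.55 (SE 0.0856, limma adjusted p = 0.00415), and again no hypoxia array reached the normoxia arrays. Probe 2 lay between them, with 9.94 to 10.35 in hypoxia, 10.61 to 10.72 in normoxia and a change of -0.44 (limma adjusted p = 0.00894). The 3 probes followed each other over the 12 arrays, at r of 0.89 to 0.93. The full p53 site shown above lies in 1 of the 2 windows of this gene.

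Ccng1 (chromosome 11, 40748552 to 40755309) encodes cyclin G1, a p53 target that recruits a phosphatase to Mdm2 and is counted with the feedback arm. Its brightest probe read 12.55, 12.34 and 12.36 in hypoxia with the inhibitor and 12.42, 12.40 and 12.25 in hypoxia, against 12.68, 12.63 and 12.68 in normoxia with the inhibitor and 12.64, 12.65 and 12.71 in normoxia. The ranges of the 2 oxygen levels, 12.25 to 12.55 in hypoxia and 12.63 to 12.71 in normoxia, did not overlap, but the gap was again narrow. The averaged change of -0.28 (SE 0.0724, limma adjusted p = 0.0463) was the smallest among the called probes, and on the arrays of replicates 1 and 2 alone it was -0.22 and did not pass (limma adjusted p = 0.0666). Probe 2 read 10.94 to 11.17 in hypoxia and 11.30 to 11.69 in normoxia, with a change of -0.40 (limma adjusted p = 0.0157). Probe 3 read 10.07 to 10.61 in hypoxia and 10.45 to 11.09 in normoxia, and these ranges overlapped. Its change of -0.36 did not pass without the replicate number in the fit (limma adjusted p = 0.177) and passed with it as a block (limma adjusted p = 0.0203). It also passed on the arrays of replicates 1 and 2 alone, at -0.29 (limma adjusted p = 0.0251). On this probe the arrays of replicate 3 were the highest of their group in all 4 groups. With the block, 10 of the 17 probes passed, beside 4.32% of all probes called lower.

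Trp53inp1 (chromosome 4, 11156441 to 11174379) encodes a nuclear protein that binds p53 and promotes its phosphorylation. Probe 1 read 9.84, 10.07 and 10.14 in hypoxia with the inhibitor and 9.90, 9.85 and 10.11 in hypoxia, against 10.43, 10.28 and 10.93 in normoxia with the inhibitor and 10.45, 10.41 and 10.75 in normoxia. Probe 2 read 9.59, 9.86 and 9.75 in hypoxia with the inhibitor and 9.57, 9.78 and 9.75 in hypoxia, against 10.27, 10.16 and 10.52 in normoxia with the inhibitor and 10.38, 10.37 and 10.43 in normoxia. On both probes every hypoxia array was below every normoxia array, and normoxia with inhibitor 3 was the highest of the 12. The change of probe 2, at -0.64 (SE 0.0877, limma adjusted p = 0.00202), was the largest among the 17 probes and left 64.2% of the normoxia signal. Probe 1 changed by -0.56 (SE 0.122, limma adjusted p = 0.0236).

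Bbc3 (chromosome 7, 16308398 to 16318334) encodes Puma, the BH3-only protein by which p53 triggers apoptosis. Its brightest probe read 9.70, 9.59 and 10.04 in hypoxia with the inhibitor and 9.92, 9.73 and 9.91 in hypoxia, against 9.91, 10.14 and 10.13 in normoxia with the inhibitor and 10.02 and 10.13 on normoxia 2 and 3 and just above 10 on normoxia 1. The hypoxia arrays were lower in each of the 6 same-numbered pairs, yet the ranges overlapped, and the change of -0.24 (95% interval -0.44 to -0.03) did not pass after adjustment (limma adjusted p = 0.185). Its probes 2 and 3 were dim, at 4.63 to 6.18, with averaged changes of -0.07 and -0.09. On the arrays of replicates 1 and 2 alone that of probe 2 was 0.14 (limma adjusted p = 0.325). The 3 Bbc3 probes did not follow each other over the arrays, at r of -0.23 to 0.27, and probe 3 was detected on 4 of 12 arrays.

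Sesn2 (chromosome 4, 132492804 to 132510456) encodes sestrin 2, a stress protein that restrains the kinase complex mTORC1. Probe 1 read 7.44, 7.41 and 8.55 in hypoxia with the inhibitor and 7.56, 7.58 and 7.56 in hypoxia, against 7.74, 7.85 and 7.86 in normoxia with the inhibitor and 7.68, 8.14 and 7.67 in normoxia. All hypoxia arrays but 1 were below every normoxia array, and the exception, hypoxia with inhibitor 3, was the highest of all 12. The averaged change was -0.14 (95% interval -0.53 to 0.25, limma adjusted p = 0.739). Without hypoxia with inhibitor 3 it was -0.33 (limma adjusted p = 0.0713), which also missed the threshold. Probe 2 had its highest value, 6.27, on the same array, and an averaged change of -0.10. On this array Gadd45a, a p53-responsive growth arrest and DNA damage gene, also had its highest value, 11.10, where the other 11 arrays read 9.32 to 10.14.

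Perp (chromosome 10, 18845071 to 18857073) encodes a desmosome-linked membrane protein that p53 uses in apoptosis and p63 in epithelia. Its single probe was detected on 1 of the 6 hypoxia arrays and on 3 of the 6 normoxia arrays. It read 4.74, 5.02 and 5.24 in hypoxia with the inhibitor and 4.62, 4.68 and 4.79 in hypoxia, against 4.65, 4.79 and 5.69 in normoxia with the inhibitor and 4.94, 5.23 and 5.37 in normoxia. These values lie around the lowest signal the arrays detect, and the change of -0.26 did not pass (limma adjusted p = 0.437). Near background the offset compresses changes. The same limit holds for Mdm2 probe 3 and Bbc3 probes 2 and 3.

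The normoxia mean of probe 1 lay at the 97.5th percentile of tested probes for Mdm2, at the 97.0th for Cdkn1a, at the 97.1st for Ccng1, at the 85.6th for Trp53inp1, at the 80.9th for Bbc3, at the 52.9th for Sesn2 and at the 9.69th for Perp. The 4 genes that passed were thus the 4 with the brightest probes. Signals of different probes do not rank the transcripts by abundance.

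Most changes in hypoxia were below 0 both without and with the inhibitor, with fewer calls at 3 arrays against 3. Without the inhibitor, 2 of the 17 probes passed and were lower, where 1.01% of all probes passed and 0.39% were lower: Mdm2 probe 1, at -0.67 (SE 0.132, limma adjusted p = 0.0394), and Trp53inp1 probe 2, at -0.70 (SE 0.124, limma adjusted p = 0.0255). With the replicate block 4 passed, adding Mdm2 probe 2 (limma adjusted p = 0.0417) and Trp53inp1 probe 1 (limma adjusted p = 0.0383), beside 0.863% of all probes called lower. Of the 17 changes 16 were below 0, where 51.8% of those of all probes were, with a median of -0.38. The exception was the dim Bbc3 probe 3, at 0.23.

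With the inhibitor, 1 of the 17 probes passed and was lower, where 0.856% of all probes passed and 0.404% were lower: Cdkn1a probe 3, at -0.60 (SE 0.121, limma adjusted p = 0.0460). The block added Trp53inp1 probe 2, at -0.58 (limma adjusted p = 0.0358 with the block and 0.0574 without it), beside 0.808% of all probes called lower. Again 16 of 17 changes were below 0, where 51.3% of those of all probes were, with a median of -0.39. The exception was Bbc3 probe 2, at 0.15. That a gene passed on one side of the inhibitor and missed on the other does not show a difference between them, which the interaction below tests.

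**Figure D2:**
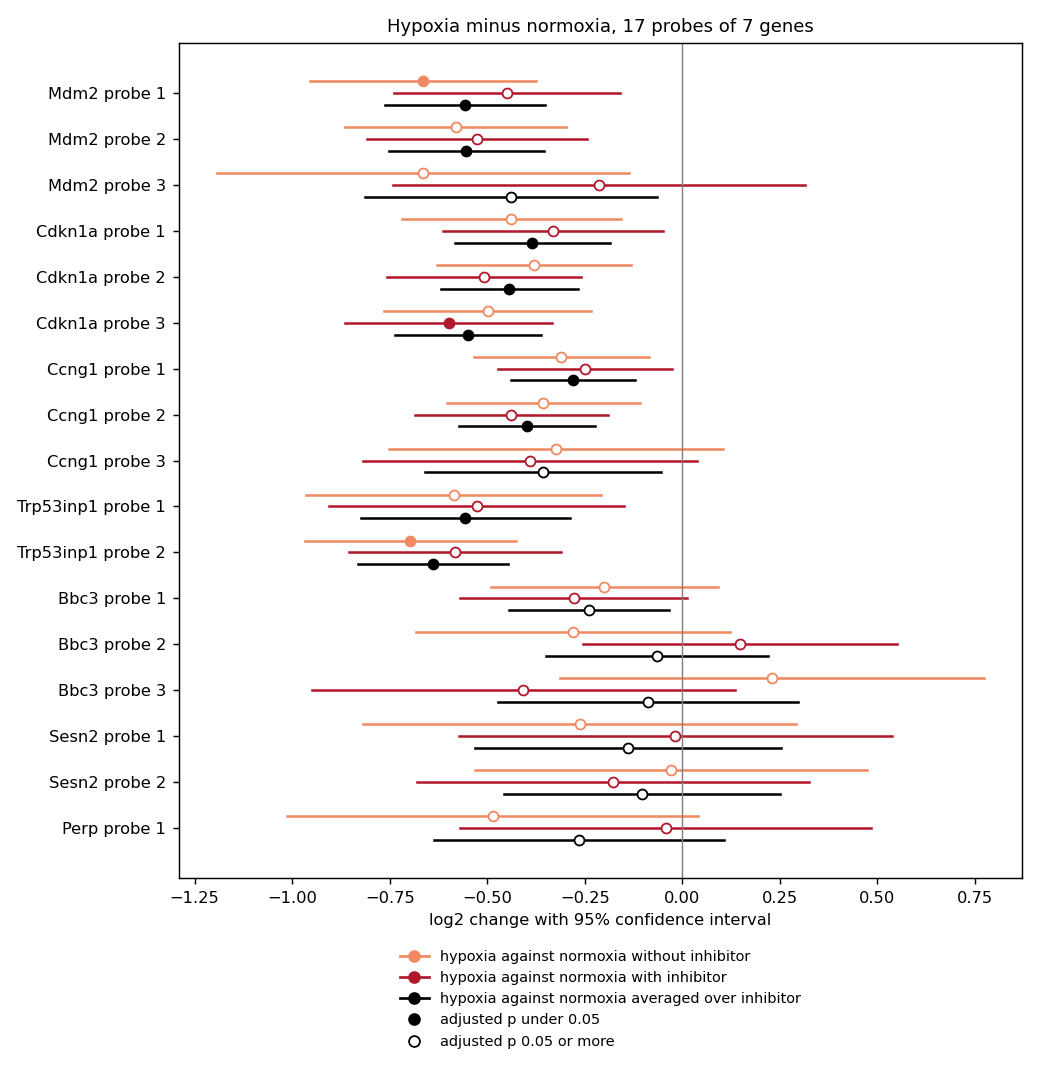
Log2 change, hypoxia minus normoxia, with its 95% confidence interval (horizontal axis) for each of the 17 probes (vertical axis), without the inhibitor, with it and averaged over both; filled points passed an adjusted p of 0.05. The 9 filled averaged points belong to Mdm2, Cdkn1a, Ccng1 and Trp53inp1 and lie between -0.64 and -0.28.

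Several of these calls were lost in fits that left out 1 array. In the averaged comparison, Mdm2 probes 1 and 2, Cdkn1a probes 2 and 3, Ccng1 probe 2 and Trp53inp1 probe 2 passed in all 12 fits that left out 1 array. Cdkn1a probe 1 passed in 3 of these fits (without hypoxia with inhibitor 1, hypoxia with inhibitor 3 or hypoxia 3; adjusted p of 0.0344 to 0.0912 by limma over the 12). Ccng1 probe 1 passed in 1, without hypoxia with inhibitor 1 (0.0474 to 0.108). Trp53inp1 probe 1 passed in 9 and was lost without hypoxia with inhibitor 1, hypoxia 1 or hypoxia 2 (up to 0.0667). Without the inhibitor, Mdm2 probe 1 passed in 3 of the 12 fits (0.00816 to 0.178), being lost without any of the 6 arrays compared and without hypoxia with inhibitor 2, normoxia with inhibitor 1 or normoxia with inhibitor 2. Trp53inp1 probe 2 was lost without any of the same 6 arrays and passed in the other 6 fits (0.0190 to 0.116). With the inhibitor, Cdkn1a probe 3 passed in 0 of the 12 fits (0.0552 to 0.160).

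The direction in the numbered pairs of arrays was counted for each member probe, and the share over all tested probes was not. The hypoxia array was below the normoxia array of the same number in 6 of 6 pairs for Mdm2 probes 1 and 2, for all 3 probes of Cdkn1a and of Ccng1, for both probes of Trp53inp1 and for Bbc3 probe 1. It was lower in 5 of 6 pairs for Mdm2 probe 3 and Sesn2 probe 1, in 4 of 6 for Bbc3 probe 3, Sesn2 probe 2 and Perp, and in 3 of 6 for Bbc3 probe 2. On the 8 arrays of replicates 1 and 2 alone, 9 of the 17 probes passed in the averaged comparison, 6 without the inhibitor and 4 with it, while 2787, 1233 and 1478 of all probes passed.

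The inhibitor was not seen to move any of these genes. In hypoxia with the inhibitor against hypoxia alone, 0 of 17 probes passed by limma, 0 had an unadjusted p under 0.05, and 0% of all probes passed. The changes ran from -0.29 to 0.37, and the lowest unadjusted p of the 17 was 0.155. In normoxia with the inhibitor against normoxia alone, likewise 0 of 17 probes passed by limma, 0 had an unadjusted p under 0.05 and 0% of all probes passed, with changes from -0.22 to 0.35. Among all probes 591 and 299 had an unadjusted p under 0.05 in these 2 comparisons.

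The precision is shown by the intervals of 1 probe for each of the 4 genes that fell in hypoxia. Other probes had wider ones, such as Mdm2 probe 3 in hypoxia (-0.16 to 0.90). Over the 17 probes the intervals reached from -0.83 to 0.90 in hypoxia and from -0.67 to 0.89 in normoxia. For Mdm2 probe 1 the inhibitor's change was 0.14 in hypoxia (95% interval -0.15 to 0.43) and -0.07 in normoxia (-0.36 to 0.22). For Cdkn1a probe 3 it was -0.14 in hypoxia (-0.41 to 0.12) and -0.04 in normoxia (-0.31 to 0.22). For Ccng1 probe 2 it was 0.07 in hypoxia (-0.18 to 0.32) and 0.15 in normoxia (-0.10 to 0.40). For Trp53inp1 probe 2 it was 0.03 in hypoxia (-0.24 to 0.31) and -0.08 in normoxia (-0.35 to 0.19). Each interval includes 0 and is wide enough to hold changes in either direction, so that equal levels are not shown.

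Whether the oxygen change itself differed with the inhibitor was tested by the interaction, the oxygen change with the inhibitor minus that without it. No member probe passed by limma (0 of 17, 0 with an unadjusted p under 0.05, and 0% of all probes passed, with 263 of all probes at an unadjusted p under 0.05). For Mdm2 probe 1 the interaction was 0.22 (95% interval -0.19 to 0.62), for Cdkn1a probe 3 it was -0.10 (-0.47 to 0.27), and for Trp53inp1 probe 2 it was 0.11 (-0.27 to 0.50). The widest interval, of Sesn2 probe 1, ran from -0.54 to 1.03, and the interaction farthest from 0, of the dim Bbc3 probe 3, was -0.64 (-1.41 to 0.13).

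**Figure D3:**
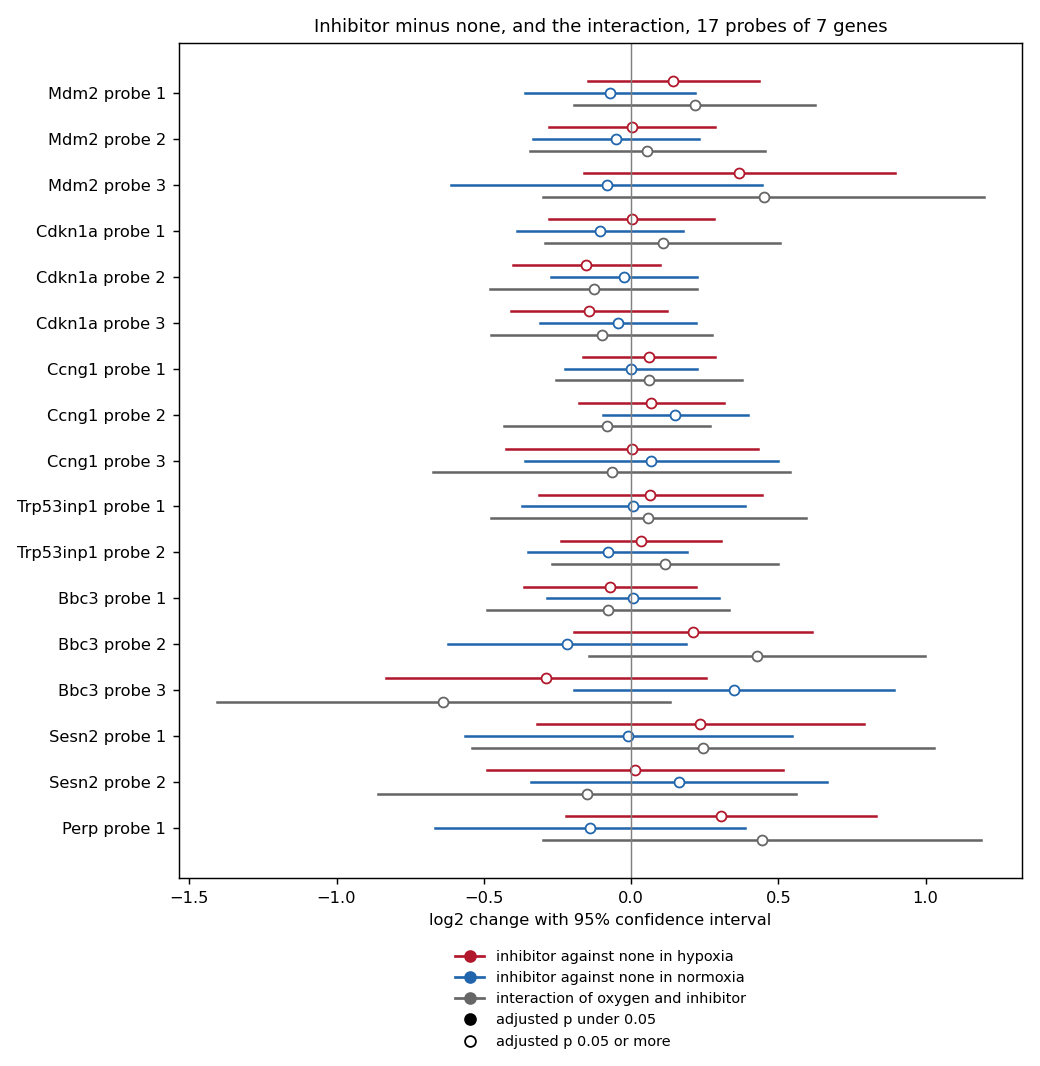
Log2 change, inhibitor minus none, in hypoxia and in normoxia, and the interaction of oxygen and inhibitor, each with its 95% confidence interval (horizontal axis), for the 17 probes (vertical axis). Every point is open, as none passed an adjusted p of 0.05, and every interval includes 0.

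Other genes known as p53 targets were followed as a list of 44, chosen from general knowledge of the pathway but with earlier results of these data known. Of these, 41 had a named probe and were tested with 1 probe a gene. In the averaged comparison 10 of the 41 fell in hypoxia and 1 rose, where 2.46% of all probes were called lower and 2.84% higher. With the replicate block 15 fell and 2 rose, where 4.32% of all probes were called lower and 1292 of 14599 passed in either direction. The median change was -0.30, beside -0.01 over all genes, and in 12 of the 41 all hypoxia arrays lay below all normoxia arrays, as in 2.54% of all probes. Psrc1, which encodes a microtubule-associated protein, read 5.85 to 6.46 on the hypoxia arrays and 6.96 to 7.39 on the normoxia arrays, a change of -1.06 (limma adjusted p = 0.000467). Ptprv, which encodes a receptor-type phosphatase, read 5.64 to 6.01 in hypoxia and 6.50 to 7.12 in normoxia, a change of -0.94 (limma adjusted p = 0.00151). Pidd1, which encodes a death domain scaffold that activates caspase 2, changed by -0.95 (limma adjusted p = 0.0220), and Ddit4l, a relative of the mTORC1 inhibitor Ddit4, by -0.87 (limma adjusted p = 0.0142). The gene that rose was Cd82, a tetraspanin named after its values were seen, at 0.64 (limma adjusted p = 0.0427), and it passed in 3 of the 12 fits that left out 1 array.

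Targets in the feedback arm and relatives of the members belong to the same list. Ppm1d, which encodes the phosphatase Wip1 that turns the p53 response down, read 9.73 to 10.03 in hypoxia and 10.26 to 10.57 in normoxia, a change of -0.51 (limma adjusted p = 0.00205). Sesn1, the relative of Sesn2 that is the classical p53-dependent sestrin, read 7.59 to 7.99 in hypoxia and 8.17 to 8.45 in normoxia, a change of -0.48 (limma adjusted p = 0.00962). Pmaip1, which encodes the BH3-only protein Noxa, had a change of -0.57 that missed the threshold (limma adjusted p = 0.0620). It passed without hypoxia with inhibitor 3, at -0.67 (limma adjusted p = 0.0270), and on the arrays of replicates 1 and 2, at -0.53 (limma adjusted p = 0.0206). Gadd45a had a change of -0.03 (limma adjusted p = 0.974) on all arrays and of -0.43 on the arrays of replicates 1 and 2 (limma adjusted p = 0.00785).

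Without the inhibitor 3 of the 41 other targets fell (Psrc1 at -0.95, Ptprv at -1.02 and Ppm1d at -0.54), where 0.39% of all probes were called lower, and 4 fell with the replicate block, where 0.863% were. Leaving out 1 array gave 0 to 4, where 26 to 335 of all probes passed. Of these 12 fits Psrc1 passed in 8 (lost without hypoxia 1 or 3 or normoxia 1 or 2; limma adjusted p up to 0.101). Ptprv passed in 7 (lost without hypoxia 1 or 2 or any normoxia array without the inhibitor; up to 0.103). Ppm1d passed in 4 and was lost without any of the 6 arrays compared, hypoxia with inhibitor 2 or normoxia with inhibitor 2 (up to 0.141). With the inhibitor 2 fell, Psrc1 at -1.17 and Ptprv at -0.86, where 0.404% of all probes were called lower, and 5 fell with the replicate block, where 0.808% were. Leaving out 1 array gave 1 to 2, where 34 to 255 of all probes passed. Psrc1 passed in 12 of the 12 fits and Ptprv in 1, without normoxia 3 (limma adjusted p of Ptprv 0.0476 to 0.126).

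The count of 10 in the averaged comparison ranged from 7 to 15 in the fits that left out 1 array, with the highest count without hypoxia with inhibitor 3. Over all 14599 probes, 774 passed in either direction with all arrays and 401 to 1052 in those fits. The count was 22 on the arrays of replicates 1 and 2, where 2787 of all probes passed. Among the named genes Pidd1 was lost without hypoxia 1, hypoxia 2 or normoxia with inhibitor 1 (limma adjusted p up to 0.0599).

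The regulators of p53 and the neighbouring families were followed in the averaged comparison, where 2.46% of all probes were called lower and 2.84% higher. Counts of 0 or 1 in lists this short are too small to be set apart from these shares. Of 18 tested genes that act on p53 protein (kinases, ligases, acetylases and partners), 0 passed by limma in the averaged comparison, also with the replicate block, and their median was -0.07. Mdm4, the Mdm2 relative that holds p53 inactive, was detected on 3 of 12 arrays and had a change of -0.19 (limma adjusted p = 0.534). Trp63 and Trp73, the genes of the p53 relatives p63 and p73, were detected on 0 of 12 arrays. Of 11 tested BCL2 family genes, which set the threshold for apoptosis and include the kin of Bbc3 and Bax, 1 rose: Bok, an effector of the Bax type, at 8.84 to 9.81 in hypoxia and 8.50 to 8.91 in normoxia, with a change of 0.84 (limma adjusted p = 0.00677). Bid, chosen after its values were seen, had a change of 0.93 that did not pass without the replicate block (limma adjusted p = 0.101) and passed with it (limma adjusted p = 0.00235).

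In the cell cycle, the relatives of Cdkn1a and Ccng1 were followed in the same comparison, beside the same shares of 2.46% of all probes called lower and 2.84% higher. Of 7 other cyclin-dependent kinase inhibitors and cyclin G2, 0 passed by limma, also with the block, with a median of 0.17. Cdkn1b, which encodes p27, had a change of 0.17 (limma adjusted p = 0.386), and Ccng2, the relative of Ccng1, one of 0.26 (limma adjusted p = 0.291). Of 14 tested genes that p21 lowers through the DREAM repressor complex, 1 rose: Ccna2, which encodes cyclin A2, at 6.57 to 6.98 in hypoxia and 6.03 to 6.50 in normoxia, with a change of 0.47 (limma adjusted p = 0.0335). It passed in 3 of the 12 fits that left out 1 array and did not pass on the arrays of replicates 1 and 2 (limma adjusted p = 0.0666). The list's median was 0.13.

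**Figure D4:**
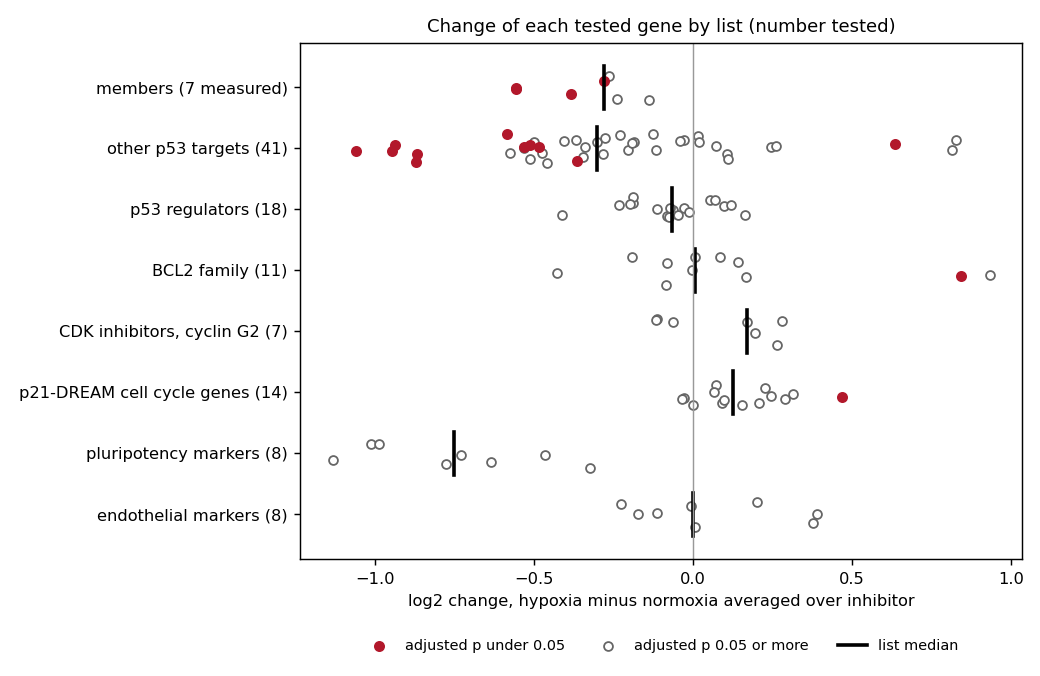
Log2 change, hypoxia minus normoxia averaged over the inhibitor (horizontal axis), of each tested gene in 8 lists (rows, with the number tested), 1 probe a gene; red points passed an adjusted p of 0.05 and black bars are list medians. The measured members have 4 red points below 0, and the other p53 targets have 10 below 0 and 1 above 0.

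The genes whose signal was most like that of each member over the 12 arrays were named from 9878 other genes by Pearson's r, as a description, since the arrays share the group differences. For Mdm2 they were Tmem11 (r = 0.96), Polrmt (0.95) and Bmpr1a (0.94). For Cdkn1a they were Myo18a (0.98), Slc9a3r2 (0.98) and Man2b1 (0.97). For Ccng1 they were Mdga2, Zfp385a and Pigf (each 0.95), and for Trp53inp1 they were Spc25 (0.96), Zmat3 (0.95) and Hsd17b4 (0.95). Zmat3, which encodes an RNA-binding zinc finger protein, is itself in the list of other p53 targets, and it fell by 0.59 on the log2 scale in the averaged comparison (limma adjusted p = 0.00802). Within groups, after group means were removed, these r ranged from 0.66 for Zfp385a with Ccng1 to 0.94 for Spc25 with Trp53inp1.

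Markers of undifferentiated ES cells had changes of the same sign as the members. All 8 pluripotency markers tested had a change below 0 in the averaged comparison, from -1.13 to -0.32 with a median of -0.75. By limma 0 of 8 passed, also with the replicate block, where 5.3% of all probes passed without it. Their summed linear signal was 1669 to 6390 in hypoxia with the inhibitor and 7993 to 9524 in hypoxia, against 2624 to 18955 in normoxia with the inhibitor and 9518 to 21966 in normoxia, and none of the 8 was at background in a whole group. The pluripotency markers also had changes below 0 for the inhibitor, 8 of 8 in hypoxia (median -0.92) and 8 of 8 in normoxia (median -0.57). The part of the pluripotency markers in the oxygen changes of the members was not tested.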

How the data were processed

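The data are 12 Illumina bead arrays of mouse cells, 4 groups of 3. Per the file headers, the deposited non-normalized table gives an intensity and a detection p-value per probe and array. The intensity had been background-subtracted before deposit, as 23.3% of values are below 0, and the deposited p-value takes steps of 1 in 798, the number of negative controls. The submitters' processing notes name BeadStudio. The authors' processed intensity, floored at 20, served only as an alternative.

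Background was corrected with limma 3.58.1 (R 4.3.3) by the normal-exponential model from the detection p-values, with an offset of 16, then quantile normalization and log2. The offset makes changes of dim probes smaller. Probes detected (p under 0.05) on at least 3 of 12 arrays were kept (14599). Of all probes, 23978 carry 1 gene symbol, 0 several and 1719 none. The 4 group means were fitted (8 residual degrees of freedom), with two-sided tests and Benjamini-Hochberg adjustment over all kept probes in each comparison, and the fitting was tested on simulated data. A probe that passed an adjusted p of 0.05 is said to have changed. Arrays have no read depth, and their number limits the precision.

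Every probe of the members is given. Of other lists, with 1 probe (the brightest kept) a gene, counts are given with up to 4 called genes a list and comparison and 6 relatives always (Mdm4, Sesn1, Ccng2, Cdkn1b, Gadd45a and Pmaip1). The members and lists were chosen with earlier results of these data known. Same-numbered arrays were checked for pairing by the correlation of their deviations from group means. This was 0.30 to 0.58 between hypoxia and normoxia, and 0.11 to 0.25 between them with the inhibitor. For the inhibitor it was 0.38 to 0.64 in normoxia and 0.03 to 0.08 in hypoxia. The first 3 comparisons were judged to be paired, but the main fit used the group means alone. Its adjusted p-values therefore leave the pairing out. Pairing entered only through the replicate block and the counts of same-numbered pairs. The labels call the replicates biological. Promoter sequences are from RefSeq (GRCm38.p6), and gene positions too. Python 3.11.15 with matplotlib 3.10.9 drew the figures. The alternatives were another offset, no filter, the processed table, median scaling, the replicate block, each array left out, and replicates 1 and 2 only.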

Additional observations from a re-analysis of the deposited data

How the results depend on the processing

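Averaged over the inhibitor, the count of member probes called lower in hypoxia was 9, and it was 8 with the authors' processed table, 7 with median scaling, 9 with an offset of 50, 9 without the detection filter, 10 with the replicate block and 6 to 9 with 1 array left out. Mdm2 probes 1 and 2, Cdkn1a probes 2 and 3, Ccng1 probe 2 and both Trp53inp1 probes passed under each of these settings other than leaving out 1 array, and also on the arrays of replicates 1 and 2. Cdkn1a probe 1 was lost with median scaling (limma adjusted p = 0.0566), and Ccng1 probe 1 with median scaling (0.0716), the processed table (0.0570) and replicates 1 and 2 only (0.0666). Without the inhibitor the count was 1 with the processed table and with median scaling and 4 with the replicate block. It was 6 on replicates 1 and 2 and 0 to 3 with 1 array left out. Over all probes 148 passed in this comparison, and 136 with the processed table, 137 with median scaling and 319 with the replicate block. That number was 1233 on replicates 1 and 2 and 26 to 335 with 1 array left out. With the inhibitor the count of member probes was 0 with the processed table and with median scaling, 3 with an offset of 50 and 2 with the replicate block. It was 4 on replicates 1 and 2 and 0 to 2 with 1 array left out. Over all probes 125 passed there, and 109 with the processed table, 111 with median scaling, 163 with an offset of 50 and 257 with the replicate block. That number was 1478 on replicates 1 and 2 and 34 to 255 with 1 array left out. The counts of member probes for the inhibitor and for the interaction were 0 under every setting. Over all probes, the 774 called in the averaged comparison became 662 with the processed table, 753 with median scaling and 928 with an offset of 50. They became 712 without the detection filter and 1292 with the replicate block. They became 2787 on replicates 1 and 2 and 401 to 1052 with 1 array left out. The 0 of all probes called for the inhibitor in hypoxia became 4 with the processed table and 39 on replicates 1 and 2. The replicate block changed no call among the members beyond those given with it above. Where arrays 1 and 2 alone were used, fewer residual degrees of freedom were left and more probes passed, and the cause was not tested.

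Changes of sign were seen only among values that had not passed, and their causes were not tested. On replicates 1 and 2 only, the change in hypoxia was 0.044 for Sesn2 probe 2 without the inhibitor, 0.16 for Perp with it and 0.14 for Bbc3 probe 2 averaged. With the processed table it was 0.034 for Sesn2 probe 2 without the inhibitor. For the inhibitor in hypoxia, replicates 1 and 2 gave -0.14 for Mdm2 probe 2, -0.084 for Ccng1 probe 3, -0.14 for Sesn2 probe 1 and -0.19 for Sesn2 probe 2. The processed table gave -0.061 and median scaling -0.016 for Sesn2 probe 2. For the inhibitor in normoxia, replicates 1 and 2 gave 0.0036 for Mdm2 probe 1, 0.011 for Ccng1 probe 1 and -0.080 for Trp53inp1 probe 1. Median scaling gave 0.015 for Ccng1 probe 1, and the processed table -0.011 for Trp53inp1 probe 1, -0.0024 for Bbc3 probe 1 and 0.11 for Perp. For the interaction, replicates 1 and 2 gave -0.12 for Mdm2 probe 2, 0.086 for Cdkn1a probe 3 and -0.028 for Sesn2 probe 1.

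With 1 array left out, the change in hypoxia without the inhibitor ran from -0.049 to 0.40 for Bbc3 probe 3 and -0.11 to 0.11 for Sesn2 probe 2. With the inhibitor it ran from -0.40 to 0.012 for Mdm2 probe 3, -0.39 to 0.18 for Sesn2 probe 1 and -0.24 to 0.28 for Perp. Averaged, it ran from -0.15 to 0.032 for Bbc3 probe 2 and -0.31 to 0.14 for Gadd45a. For the inhibitor in hypoxia it was -0.11 to 0.13 for Mdm2 probe 2, -0.062 to 0.10 for Cdkn1a probe 1, -0.0071 to 0.098 for Ccng1 probe 1 and -0.15 to 0.12 for Ccng1 probe 3. It was -0.031 to 0.11 for Trp53inp1 probe 2, -0.20 to 0.021 for Bbc3 probe 1, -0.14 to 0.43 for Sesn2 probe 1 and -0.26 to 0.16 for Sesn2 probe 2. For the inhibitor in normoxia it was -0.10 to 0.00098 for Mdm2 probe 2, -0.26 to 0.099 for Mdm2 probe 3, -0.14 to 0.043 for Cdkn1a probe 3, -0.014 to 0.021 for Ccng1 probe 1 and -0.12 to 0.22 for Ccng1 probe 3. It was -0.19 to 0.14 for Trp53inp1 probe 1, -0.032 to 0.082 for Bbc3 probe 1, -0.091 to 0.15 for Sesn2 probe 1 and -0.46 to 0.057 for Perp. For the interaction it was -0.055 to 0.18 for Mdm2 probe 2, -0.0055 to 0.10 for Ccng1 probe 1, -0.14 to 0.013 for Ccng1 probe 2 and -0.22 to 0.13 for Ccng1 probe 3. It was -0.074 to 0.25 for Trp53inp1 probe 1, -0.21 to 0.015 for Bbc3 probe 1, -0.13 to 0.44 for Sesn2 probe 1 and -0.42 to 0.00092 for Sesn2 probe 2.

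Signal near background limits Mdm2 probe 3, Bbc3 probes 2 and 3, Sesn2 probe 2 and Perp, whose changes are compressed by the offset. The counts and values of genes outside the members under these settings were recomputed after their main values were seen. Among them Cd82 did not pass without the detection filter (limma adjusted p = 0.0629) or with the processed table (0.0669), and Ccna2 did not pass on replicates 1 and 2 (0.0666), where Pmaip1 did (0.0206).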
